A study of Mus musculus with 3 samples.

Results

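The 10 genes *Pecam1*, *Cdh5*, *Kdr*, *Flt1*, *Tek*, *Vcam1*, *Sele*, *Pdgfrb*, *Col1a1* and *Acta2* mark endothelial or stromal cells, and H3K4me1 at them was examined in mouse islets exposed to inflammatory cytokines. They were picked by name for the cell types they mark, and they are 10 of the 22350 protein-coding genes annotated on chromosomes 1 to 19 and X (GENCODE M1, mm9). An enriched region was attributed to a gene if it overlapped the gene or lay within 20 kb of any of its transcriptional start sites (TSS). By this rule 24 of the 65709 regions fell to 8 of the 10 genes, and *Cdh5* and *Pdgfrb* had none. The question was whether the non-endocrine cells of the islet leave a trace in a chromatin map of whole islets.

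The map comes from 1 ChIP-seq library. By the labels, the islets came from CD1 mice 8 to 12 weeks old. The study's methods name the strain ICR and give a narrower age range. The islets were cultured for 4 days with IFNγ at 1.6 ng/ml, with Il-1β at 0.25 ng/ml and with TNFα at 0.16 ng/ml. DNA from 4 ChIP experiments was pooled. Islets were hand-picked and not sorted by cell type, so any cell that stayed in the islet contributes chromatin, and fewer cells of a type cannot be told apart from less H3K4me1 per cell. The list gives the position of each region on a grid of 200 bp, without a read count, height or p-value. The series holds no replicate H3K4me1 library, so the values below carry no error and no difference was tested.

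Islets are densely vascularised. Their capillaries are built of fenestrated endothelial cells, which are wrapped by pericytes and bordered by few fibroblasts, and endocrine cells secrete growth factors of the VEGF family that maintain this vessel bed. H3K4me1 marks enhancers and the surroundings of promoters in an active or poised state. At strongly active promoters the nucleosomes next to the TSS often carry H3K4me3 in its place, so that H3K4me1 flanks such a TSS. The markers were chosen for known roles. *Pecam1* (CD31) and *Cdh5* (VE-cadherin) encode junctional adhesion proteins of endothelial cells, *Kdr* (VEGFR2) and *Flt1* (VEGFR1) encode receptors for VEGF, and *Tek* (Tie2) encodes the receptor for angiopoietins. *Vcam1* and *Sele* (E-selectin) encode adhesion molecules that inflammatory cytokines induce on endothelium and that capture leukocytes. *Pdgfrb* encodes the PDGF receptor of pericytes and fibroblasts, *Col1a1* a chain of type I collagen, and *Acta2* smooth muscle α-actin.

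The sequences around 6 start sites are shown because the genes differ in CpG content, which goes along with H3K4me1 at start sites across the genome, as given further on. Each runs from 250 bases before the most upstream TSS to 20 bases from it (270 bases, 5′ to 3′ on the strand of the gene, mm9), with CpG dinucleotides in capitals. *Kdr* (chr5:76374464-76374733, minus strand), *Flt1* (chr5:148537568-148537837, minus strand), *Tek* (chr4:94405730-94405999, plus strand) and *Vcam1* (chr3:115832587-115832856, minus strand) have this TSS inside a region, whereas *Sele* (chr1:165978115-165978384, plus strand) and *Acta2* (chr19:34329807-34330076, minus strand) do not.
Kdr: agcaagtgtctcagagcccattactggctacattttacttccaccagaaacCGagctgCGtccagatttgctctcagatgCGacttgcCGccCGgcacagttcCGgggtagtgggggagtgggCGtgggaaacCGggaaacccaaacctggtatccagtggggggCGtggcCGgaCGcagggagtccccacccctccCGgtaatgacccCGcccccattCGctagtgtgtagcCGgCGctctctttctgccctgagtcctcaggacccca
Flt1: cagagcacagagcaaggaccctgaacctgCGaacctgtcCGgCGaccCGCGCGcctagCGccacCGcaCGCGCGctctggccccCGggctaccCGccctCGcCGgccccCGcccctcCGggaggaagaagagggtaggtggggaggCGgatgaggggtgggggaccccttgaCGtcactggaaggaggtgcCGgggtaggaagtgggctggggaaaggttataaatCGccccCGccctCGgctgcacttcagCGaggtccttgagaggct
Tek: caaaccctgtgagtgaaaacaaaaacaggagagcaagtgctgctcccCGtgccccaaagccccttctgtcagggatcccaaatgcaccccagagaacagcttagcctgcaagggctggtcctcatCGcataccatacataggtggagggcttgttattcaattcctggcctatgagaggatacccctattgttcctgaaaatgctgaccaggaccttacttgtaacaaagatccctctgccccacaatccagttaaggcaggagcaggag
Vcam1: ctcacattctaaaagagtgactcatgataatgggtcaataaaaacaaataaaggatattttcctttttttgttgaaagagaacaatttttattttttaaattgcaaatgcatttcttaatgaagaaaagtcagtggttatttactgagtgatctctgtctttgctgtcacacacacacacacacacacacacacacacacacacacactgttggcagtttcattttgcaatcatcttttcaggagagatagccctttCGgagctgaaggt
Sele: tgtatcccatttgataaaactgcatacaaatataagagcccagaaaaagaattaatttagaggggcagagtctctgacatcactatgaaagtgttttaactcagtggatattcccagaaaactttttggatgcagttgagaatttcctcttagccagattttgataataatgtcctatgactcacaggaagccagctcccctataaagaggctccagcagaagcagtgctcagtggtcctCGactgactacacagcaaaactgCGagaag
Acta2: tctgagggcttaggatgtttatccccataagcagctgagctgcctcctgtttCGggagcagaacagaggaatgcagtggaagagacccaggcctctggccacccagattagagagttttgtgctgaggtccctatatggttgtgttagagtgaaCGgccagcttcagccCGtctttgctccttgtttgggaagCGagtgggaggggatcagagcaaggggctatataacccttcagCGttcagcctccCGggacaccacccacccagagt
The *Flt1* sequence holds 24 CpG dinucleotides and the *Kdr* sequence 16. The other 4 hold few, with 6 in *Acta2*, 2 each in *Tek* and *Sele*, and 1 in *Vcam1*. The median over the same window of all protein-coding genes was 10, with quartiles of 3 and 20.

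Of the endothelial receptors, *Kdr* had a single region. The gene occupies chromosome 5, 76328852 to 76374483 (minus strand), and both of its annotated TSS positions were inside this 1.6 kb region (76373401 to 76375000). Its edges were 517 bp upstream and 1082 bp downstream of the most upstream TSS, and it overlapped the 5′ UTR, the coding part of exon 1 and intron 1. The rest of the 45.6 kb gene had no region. The next regions were 44.5 kb upstream of the gene and 74.7 kb past its end. *Kdr* was the protein-coding gene with the closest TSS to both, but for the latter that TSS lay beyond the 100 kb limit used here. The region at the start of *Kdr* was thus the only one in 164.8 kb.

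*Flt1*, the other VEGF receptor (same chromosome, 148373180 to 148537587, minus strand), had 5 regions. The widest, 2.2 kb from 148536401 to 148538600, covered the 2 start sites of its protein-coding transcripts, with 1013 bp upstream and 1186 bp downstream of the most upstream one. A region of 1.8 kb (148548001 to 148549800) lay 10.4 kb upstream of that TSS, outside annotated genes. Inside the gene, a region of 0.6 kb overlapped exon 6 and intron 6, another of 0.6 kb lay in intron 16, and one of 2.0 kb (148374401 to 148376400) overlapped intron 29 and the last exon, including its 3′ UTR. The last of these was closer to a TSS of *Pan3* than to any of *Flt1*. The 2 TSS of non-coding *Flt1* transcripts inside the gene were not covered, and the closest regions were 12.8 and 32.0 kb away.

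*Tek* (chromosome 4, 94405980 to 94541667, plus strand), a gene of 135.7 kb, had 2 regions. One of 0.6 kb, from 94405401 to 94406000, began 579 bp upstream of the most upstream TSS and ended 20 bp downstream of it, so that it covered 2 of 4 annotated TSS positions. Another TSS, 229 bp downstream of the most upstream one, lay 209 bp beyond its edge, which is about the width of 1 grid step. The other region, 1.6 kb from 94418401 to 94420000, was in intron 1, starting 12.4 kb downstream of the most upstream TSS. No other region was found between 57.0 kb upstream of the gene and 26.3 kb past its end.

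The endothelial junction genes differed most from each other. *Pecam1* (chromosome 11, 106515531 to 106611942, minus strand) had 8 regions with a summed width of 28.0 kb, more than the 20.6 kb of the 16 regions at the other members together. The widest, 11.0 kb from 106530201 to 106541200, spanned exons 13 and 14 and parts of introns 12 to 14 of the longest coding transcript, which has 16 exons. Only 1.59% of all regions on these chromosomes were wider. Others of 5.6 kb (106598601 to 106604200) and 5.4 kb (106517001 to 106522400) lay in introns, 7.74 and 89.5 kb downstream of the most upstream TSS. The single region over a TSS of *Pecam1*, by contrast, was 0.4 kb wide (106611601 to 106612000), the narrowest of the 24. It covered the most upstream TSS, which lies 575 bp from a TSS of the divergent gene *Gm885*, and 97.1% of all regions were at least as wide. The 5 other protein-coding TSS positions of *Pecam1*, grouped 35.2 to 35.7 kb further downstream, were 6.89 to 7.34 kb from the nearest region. Of the other 4 regions, 3 lay in the gene: one of 2.2 kb (106583601 to 106585800) in intronic sequence, one of 0.6 kb (106544401 to 106545000) over exon 10, and one of 1.6 kb (106523801 to 106525400) in intron 14. The last of the 8, 1.2 kb wide and 4.46 kb upstream of the gene, lay inside *Gm885* and nearer to its TSS.

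*Cdh5*, in contrast, had no region in the gene (chromosome 8, 106625525 to 106668402, plus strand) or within 20 kb of its TSS. The nearest regions ended 75.5 kb upstream of the gene and began 26.4 kb past its end, each 0.4 kb wide (106549601 to 106550000 and 106694801 to 106695200), and they bounded 144.8 kb without any region. Depth is unknown from the list, so the gap says that no enrichment was listed, not that H3K4me1 was absent.

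Of the cytokine-inducible adhesion genes, *Vcam1* had a region at its start and *Sele* did not. The 2 annotated TSS positions of *Vcam1* (chromosome 3, 115812938 to 115832606, minus strand), 231 bp apart, were both inside its 0.6 kb region (115832201 to 115832800). It ran from 194 bp upstream of the most upstream TSS to 405 bp downstream, over UTR, coding sequence and part of intron 1. A further region, 4.54 kb past the end of the gene (115807801 to 115808400), was closest to *Vcam1* but outside the distance used here. *Sele* (chromosome 1, 165978365 to 165987808, plus strand) had no region over the gene, and the 1 region attributed to it, 1.0 kb from 165960801 to 165961800, lay 16.6 kb upstream, outside annotated genes. Neither *Vcam1* nor *Sele* had a region wider than 1.0 kb, whereas *Icam1*, another adhesion gene that these cytokines are known to induce, had 4 regions covering 34.0% of its window, and the one over its TSS was 3.6 kb wide. Only 2 regions were nearest to a TSS of *Icam1*. At *Selp* (P-selectin), a relative of *Sele*, no TSS was inside a region, no region was wider than 0.4 kb, and 2.24% of the window was covered. All 4 further adhesion genes had a region (beside 76.4% of all protein-coding genes), 2 of them (*Icam1* and *Cx3cl1*) over a TSS (beside 39.1%), and their covered shares ranged from 2.24% to 34.0%. At *Madcam1* 5 regions lay in the window, but only 1 region was nearest to its TSS.

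The stromal markers held regions at or just inside the start of *Col1a1* and *Acta2*. *Col1a1* (chromosome 11, 94797538 to 94814356, plus strand) had 5 regions. A 1.4 kb region (94798001 to 94799400) overlapped exon 2 and intron 1, starting 463 bp past the most upstream TSS, and among the 5 annotated TSS positions it covered only that of a processed transcript 1.46 kb into the gene. Another of 1.6 kb (94806801 to 94808400) overlapped exons 31 to 36 of 51, and one of 1.2 kb lay 7.34 kb upstream of the gene. The 2 regions past the end of the gene were closer to a TSS of *Gm17329* and of *Hils1*, respectively, than to one of *Col1a1*. *Acta2* (chromosome 19, 34315580 to 34329826, minus strand) had 1 region, 0.8 kb from 34328801 to 34329600, in intron 1, whose edge was 226 bp downstream of the TSS. The next region upstream, 31.6 kb away and 4.0 kb wide by its positions (34361401 to 34365400), was closest to *Fas*, which encodes a death receptor.

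*Pdgfrb* (chromosome 18, 61204804 to 61244715, plus strand) had no region in 81.8 kb around the gene. The nearest one upstream was 30.8 kb from the gene and closest to *Slc6a7*. The TSS of the neighbour *Cdx1*, 8951 bp away, was not inside a region. The nearest one past its end began 11.1 kb away (61255801 to 61256400) and was closest to *Csf1r*, the receptor gene of macrophages that follows *Pdgfrb* on the chromosome.

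**Figure D1:**
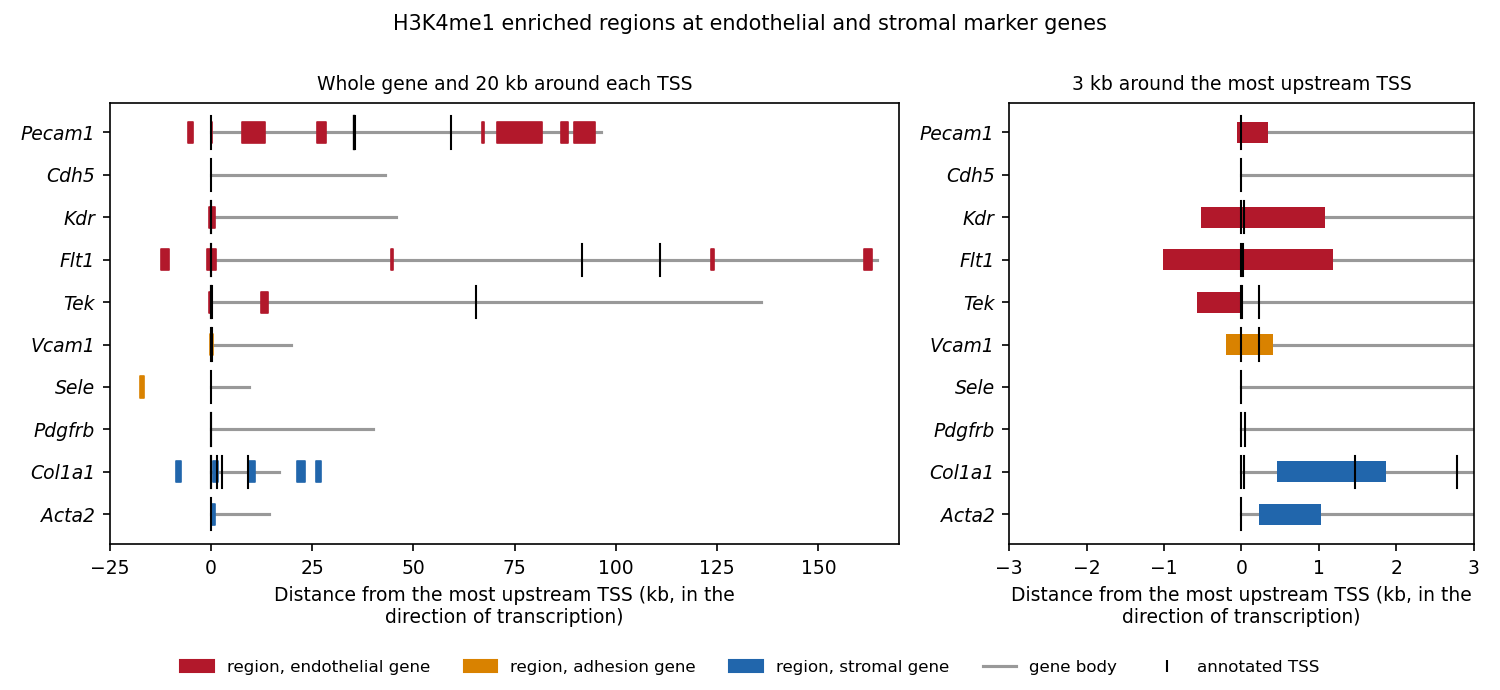
Regions at the 10 marker genes by distance from the most upstream TSS (kb, positive in the direction of transcription), in the whole gene (left) and in the 3 kb on either side (right). Boxes are H3K4me1 enriched regions coloured by gene class, grey lines gene bodies and black ticks annotated TSS positions. *Pecam1* has 8 regions, 7 overlapping the gene and 1 upstream of it. *Kdr* and *Vcam1* have 1 each at the start, and *Cdh5* and *Pdgfrb* have none.

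Taking the members as a group, 8 of 10 had at least 1 region, beside 76.4% of all protein-coding genes, and 9 of 10 were the protein-coding gene with the closest TSS to at least 1 region within 100 kb, beside 69.5%. A TSS lay inside a region for 6 of 10 (*Pecam1*, *Kdr*, *Flt1*, *Tek*, *Vcam1* and *Col1a1*), beside 39.1% of protein-coding genes. With TSS of protein-coding transcripts alone *Col1a1* dropped out (5 of 10, beside 36.2%). With regions of at least 1000 bp alone, *Kdr*, *Flt1* and *Col1a1* were left (3 of 10, beside 35.7%). The share of members with any region was thus close to that of all genes, and the share with a TSS inside a region lay above or below its background depending on whether narrow regions were counted.

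The amount of sequence covered was low. Regions covered 0% of the window of *Cdh5* and *Pdgfrb*, 1.41% at *Tek*, 1.49% at *Vcam1*, 2.0% at *Acta2*, 2.44% at *Kdr*, 2.5% at *Sele* and 3.90% at *Flt1*, where the window is the gene together with 20 kb on either side of each TSS. *Col1a1* (14.7%) and *Pecam1* (24.1%) stood above these. The median of the 10 genes was 2.22%, and that of all protein-coding genes was 6.50%, with quartiles of 0.713% and 16.1%. 8 of the 10 genes were below this median, and the other 2, *Col1a1* and *Pecam1*, were above it. The median number was 1 region per marker gene and 2 per protein-coding gene.

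The regions over a TSS of the markers were narrow. They measured 0.4 kb at *Pecam1*, 0.6 kb at *Tek* and *Vcam1*, 1.4 kb at *Col1a1*, 1.6 kb at *Kdr* and 2.2 kb at *Flt1*, with a median of 1.0 kb. The 9102 regions over a TSS of any protein-coding gene had a median width of 2.4 kb and quartiles of 1.4 and 4.2 kb, and 46.6% of them were no wider than that of *Flt1*. The 18 other regions at the markers had a median of 1.6 kb, beside 1.2 kb for all regions away from these start sites. Of the 24 regions, 18 overlapped the gene and 6 lay outside it. Of the 18, 11 touched an exon of some transcript and 7 were intronic. 4 of the 24 regions were closer to a TSS of another protein-coding gene.

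**Figure D2:**
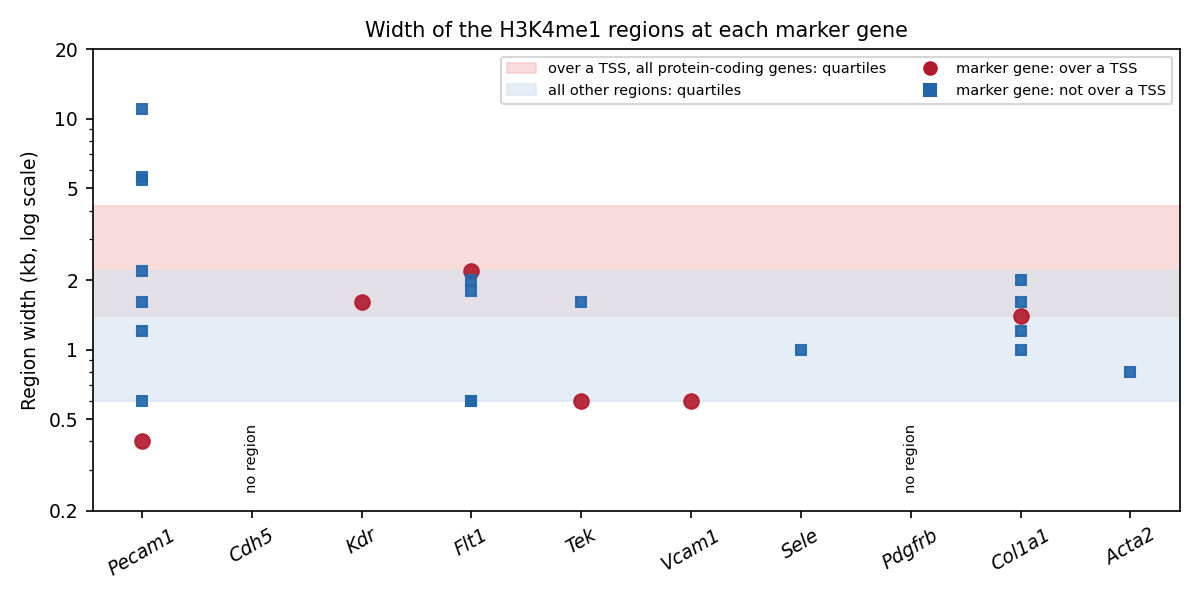
Width of each region at the 10 marker genes (kb, log scale), with circles for regions over a TSS and squares for the rest. The red band gives the quartiles (1.4 and 4.2 kb) of regions over a TSS of any protein-coding gene and the blue band those of all other regions (0.6 and 2.2 kb). The circles of *Pecam1*, *Tek* and *Vcam1* lie below the red band, and the widest squares belong to *Pecam1*.

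A start site was taken as CpG-rich when the 1 kb around the most upstream TSS had at least 50% GC and an observed over expected CpG ratio of at least 0.6. In the list of all protein-coding genes, 54.5% of the 9883 genes with a CpG-rich start had a TSS inside a region, and 27% of the other 12467. *Flt1* (70.6% GC, ratio 0.813) and *Kdr* (60.6% GC, ratio 0.656) were CpG-rich, and both had a TSS inside a region. The other 8 markers had ratios from 0.244 (*Cdh5*) to 0.394 (*Pdgfrb*). A TSS inside a region was found for 4 of these 8, *Pecam1*, *Tek*, *Vcam1* and *Col1a1*, beside the 27% given. The part of CpG content in the marks at *Flt1* and *Kdr* was not tested.

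**Figure D3:**
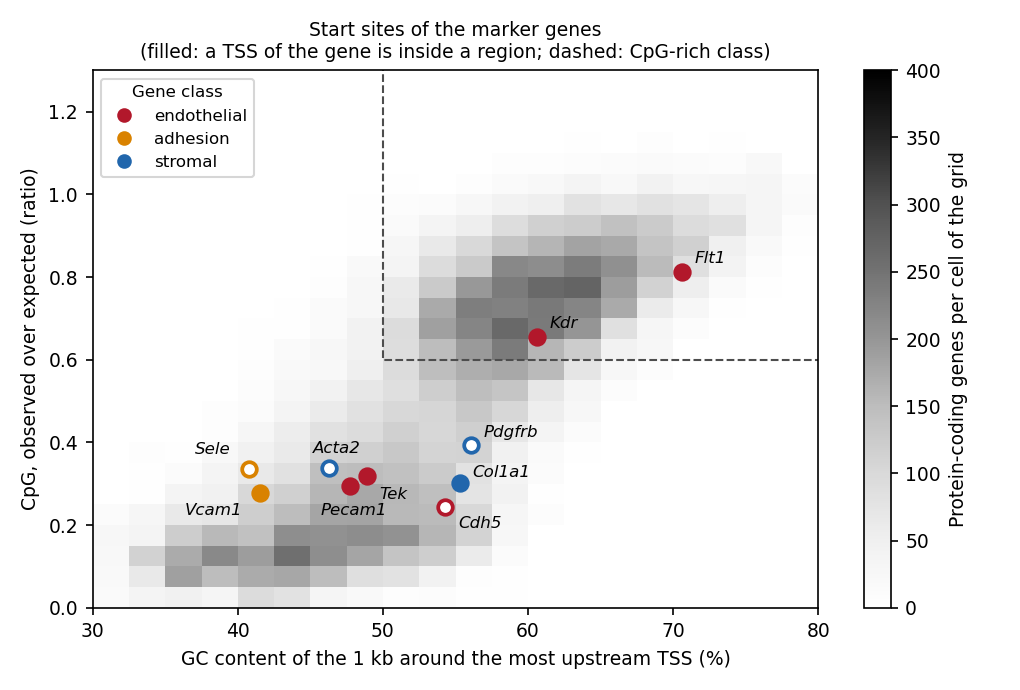
GC content (%) and observed over expected CpG (ratio) of the 1 kb around the most upstream TSS, with all protein-coding genes as a grey grid and the 10 marker genes as points coloured by class. Filled points have a TSS inside a region, and the dashed lines bound the CpG-rich class, which holds *Flt1* and *Kdr* alone among the markers.

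Motif letters were searched on both strands of the 270 bases in all 22350 genes, and a match is a description of the sequence only. Windows at further TSS positions, such as that of *Vcam1* 231 bp downstream of the most upstream one, were not searched. CNGGAAG, a core recognised by ETS factors such as those that act in endothelium, was found at *Pecam1*, *Flt1* and *Sele*, and in 29.3% of all genes. In *Sele* it reads CAGGAAG and lies 66 to 60 bases before the TSS, and in *Flt1* it reads CTGGAAG at 73 to 67 bases. A broad NF-κB motif, GGG and CC with 5 bases of any kind between them, was found at *Kdr*, *Flt1*, *Tek*, *Sele* and *Col1a1*, and in 51.6% of all genes. In *Sele* it reads GGATATTCCC on the strand of the gene, at 145 to 136 bases, without overlap with the ETS letters. Of the 4 matches in *Col1a1*, 2 overlap each other on opposite strands. The letters AGATAA, which are recognised by the zinc finger factors of haematopoietic and endothelial cells that bind GATA sites, were in none of the 10 windows and in 9.72% of all genes, and the strict CArG box of serum response factor (CC and GG with 6 bases between them, each A or T) in none of the 10 and in 1.41% of all. Forms of the CArG box with a substitution were not counted, and the *Acta2* sequence printed above holds a pair of them, ccctatatgg and ccttgtttgg.

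For a wider view, 61 other vascular and stromal genes were counted by the same rule, including the adhesion genes above. A region was found for 51 of them (83.6%, beside 76.4% of all protein-coding genes), and a TSS lay inside a region for 24 (39.3%, beside 39.1%). With regions of at least 1000 bp alone the latter count was 16 of 61, a smaller share than the 35.7% of all genes. With the most upstream TSS alone the count was 17 of 61, also a smaller share than the 31.1% of all genes. Of 24 further endothelial genes, 22 had a region and 9 (37.5%, below the 39.1% of all genes) a TSS inside one, and their median covered share was 6.00%. The transcription factor genes *Fli1* (3.8 kb), *Sox7* (2.6 kb), *Tal1* (2.0 kb) and *Ets1* (1.0 kb) had a region over a TSS, as did *Nrp1* (3.2 kb), a co-receptor for VEGF, *Vwf* (2.4 kb), which encodes von Willebrand factor, *Esam* (0.8 kb), *Egfl7* (0.8 kb) and *Cd34* (0.6 kb). At 7 more a region came within 2 kb of a TSS without covering one, for example 145 bp at *Sox18*, 307 bp at *Sox17* and 261 bp at *Cldn5*, the gene of the tight junction protein claudin-5. A region lay within 2 kb of a TSS, or over it, for 62.0% of all protein-coding genes, beside the 39.1% with a TSS inside one. *Tie1*, a relative of *Tek*, and *Emcn* (endomucin) had no region, and the nearest ones were 21.5 and 169.1 kb from their TSS.

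Of 17 further pericyte and smooth muscle genes, 16 had a region (94.1%, beside 76.4% of all protein-coding genes) and 8 a TSS inside one (47.1%, beside 39.1%), and the median covered share was 6.46%, beside 6.50%. The regions over a TSS were 3.0 kb wide at *Anpep*, 2.8 kb at *Kcnj8*, 2.0 kb at *Mcam*, 1.0 kb at *Abcc9*, 0.6 kb at *Myocd* and 0.4 kb at *Rgs5*, *Ednra* and *Smtn*. At *Notch3* and *Des* a region came within 25 and 97 bp of a TSS. *Heyl* had none. Of 16 further fibroblast and matrix genes, 9 had a region and 5 a TSS inside one (31.3%, beside 39.1%), with a median covered share of 0.894%. These 5 were *Pdgfra* (6.8 kb), *Twist1* (2.4 kb), *Col1a2* (1.0 kb), *Col5a1* (1.0 kb) and *Thy1* (0.8 kb). No region was listed for *Col3a1*, *Col6a1*, *Col6a2*, *Dcn*, *Lum*, *Mmp2* or *Tcf21*, and at *Col3a1* the nearest region was 452.9 kb from a TSS. The fibroblast list was the only one of these further lists with a smaller share of genes with a region (56.3%) than the 76.4% of all protein-coding genes.

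The ligands of the marker receptors were counted as well, since endocrine cells are known to produce some of them. Of 10 such genes 8 had a region (80%, beside 76.4% of all protein-coding genes) and 7 a TSS inside one (70%, beside 39.1%). Their median covered share, 4.91%, was below the 6.50% of all genes. *Vegfa*, the main ligand of *Kdr*, had 5 regions covering 38.8% of its window, and the one over a TSS was 13.4 kb wide. *Vegfb*, a ligand of *Flt1*, was covered at 45.9%, but only 1 region was closest to a TSS of *Vegfb*, although 5 lay in its window. *Pdgfb*, a ligand of *Pdgfrb*, was covered at 16.0%. The angiopoietin genes *Angpt1* and *Angpt2*, whose products bind Tek, had a region over a TSS of 1.8 and 3.2 kb, with 1.32% and 7.32% of the window covered. *Pdgfb* (6.0 kb), *Vegfb* (3.8 kb), *Pgf* (1.4 kb) and *Pdgfd* (0.4 kb) also had a region over a TSS, and *Vegfc* and *Figf* had no region. The covered share of *Vegfa* was higher than that of each of the 10 markers, including the receptors *Kdr* (2.44%) and *Flt1* (3.90%).

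β-cell genes served to check the tissue. All 18 of them, among them *Ins1*, *Ins2*, *Pdx1* and *Mafa*, had a region, beside 76.4% of all protein-coding genes. All 18 had a higher covered share than the median of the 10 markers. Their median was 35.0% and their range 6.94% to 73.8%, and 13 of the 18 exceeded *Pecam1*, the highest marker. *Pecam1* and *Col1a1* were the only markers above the lowest β-cell gene, *Ins2*. A region over 10 kb was found at 8 of 18 β-cell genes, at 1 of the 10 markers, and at 2 of the 61 further vascular and stromal genes. The share of all protein-coding genes with such a region was not counted, so these counts have no background. Of the 61, the 2 were *Nos3* (16.2 kb) and *Tagln* (10.6 kb). Every region in the *Nos3* window had its nearest TSS in another gene. *Tagln* had 3 regions in its window, but only 1 region was nearest to its TSS. A TSS inside a region did not follow the order of the covered shares. It was found for 7 of 18 β-cell genes (38.9%), about the share of all protein-coding genes (39.1%). For 9 other β-cell genes a region came within 2 kb of a TSS without covering one. A region lay within 2 kb of a TSS, or over it, for 62.0% of all protein-coding genes. Where a TSS of a β-cell gene was covered, the widest region over it was 2.2 to 16.0 kb wide.

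Genes of other cell types and tissues were counted for comparison, beside the 76.4% of all protein-coding genes with a region, the 39.1% with a TSS inside one and the median covered share of 6.50%. Of 13 leukocyte genes, 8 (61.5%) had a region and 1 (*Cd68*, 7.69%) a TSS inside one, with a median covered share of 2.27%. By region midpoint, *Cd68* was the closest gene of no region. Of 12 exocrine acinar and duct genes, 11 (91.7%) had a region and 5 (41.7%) a TSS inside one, with a median of 7.88%. Of 16 genes of tissues that are not part of the islet, such as *Alb* (liver), *Myh4* (skeletal muscle) and *Krt14* (skin), 10 (62.5%) had a region, 3 (18.8%) a TSS inside one, and the median was 3.75%. Only 5 of these 16 were the closest gene of any region, and *Apoa2*, covered at 57.5%, of none, so that regions in the window can lie closer to the start of a neighbouring gene. The median covered share of the markers, 2.22%, was lower than that of these 16 genes.

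**Figure D4:**
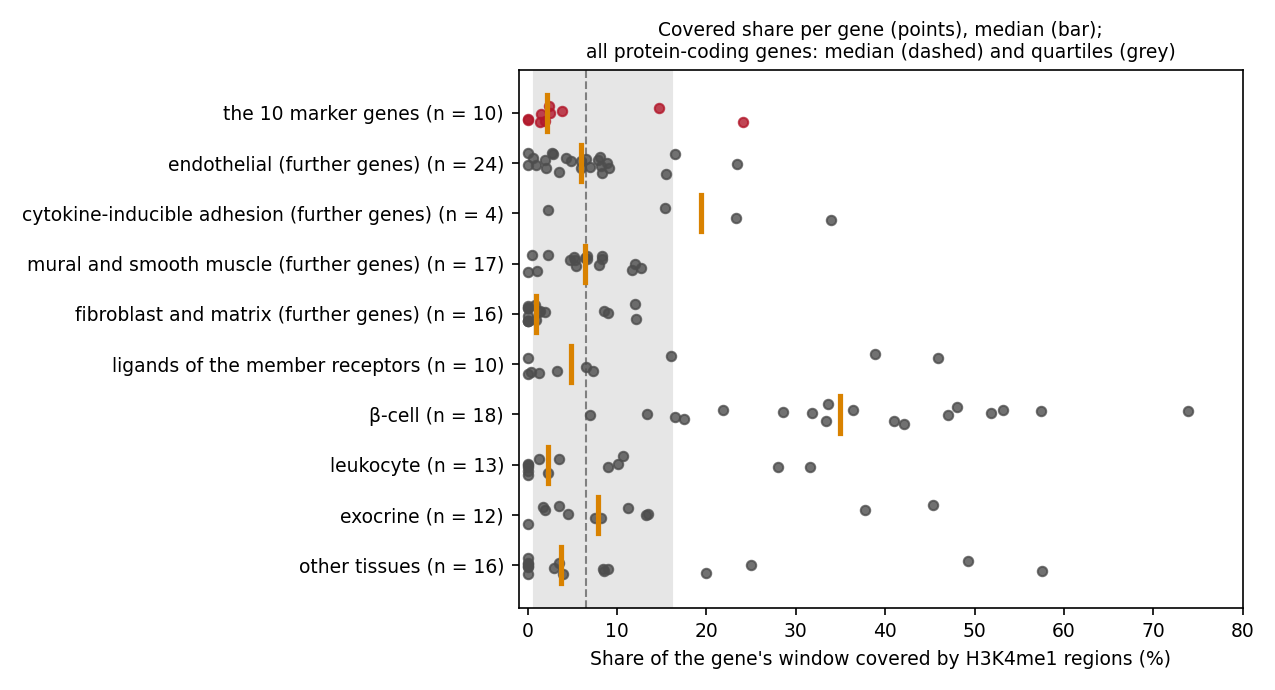
Share of each gene's window covered by H3K4me1 regions (%), 1 point per gene and a bar at the median of each list. The dashed line and grey band give the median (6.50%) and quartiles (0.713% and 16.1%) of all protein-coding genes. Of the markers, 8 lie between 0% and 3.90%, *Col1a1* at 14.7% and *Pecam1* at 24.1%, and the β-cell genes extend to 73.8%.

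**Figure D5:**
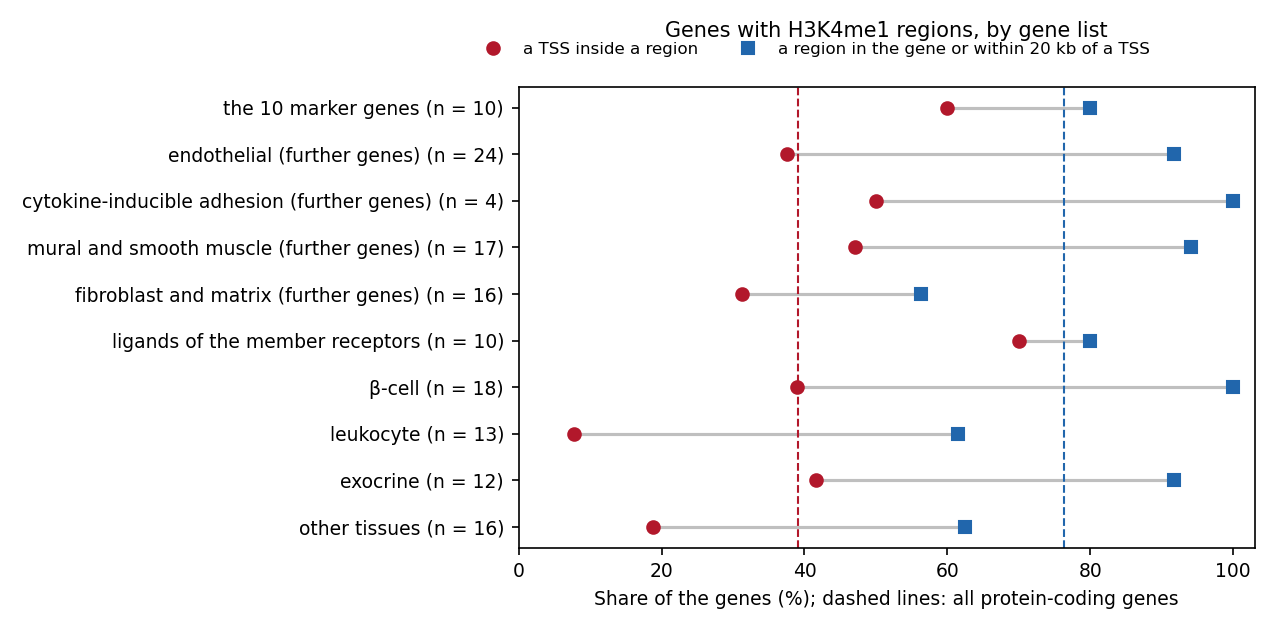
Share of the genes of each list (%) with a TSS inside a region (circles) and with a region in the gene or within 20 kb of a TSS (squares), with dashed lines for all protein-coding genes (39.1% and 76.4%). The 10 markers lie to the right of the line for a TSS inside a region at 60%, and the leukocyte list lies farthest to its left at 7.69%.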

How the data were processed

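H3K4me1 was measured by ChIP-seq in 1 pooled library of cytokine treated islets. The authors mapped reads to mm9 with bowtie2 (Bowtie2 2.2.1 in the submitters' processing notes), used ChromHMM to find enriched regions and deposited the positions alone. The version and settings of ChromHMM are not given in the sources used here. The study's methods describe a later filter on weakly enriched loci, and they do not say whether the deposited list precedes it. RNA-seq and untreated islets were not analysed here.

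Here 1 was added to each start, and the 65709 regions were set against GENCODE M1 on the same build; the 65650 regions on chromosomes 1 to 19 and X were used. No region passed the end of its chromosome. A gene's covered share is the percent of bases of its window inside regions. The closest gene is the protein-coding gene with the TSS nearest to a region's midpoint, up to 100 kb. Exon numbers refer to the coding transcript with the longest summed exons. *Spi1* was found under its older symbol through the RefSeq gene table. The members and gene lists were chosen with earlier results of these data known, so counts over them are descriptions. All 10 members and the neighbours closest to their regions are named. Of the lists, genes with a TSS inside a region or with no region could be named, and are named in full for the endothelial, adhesion, mural and fibroblast lists and the ligands only; other genes, and those closest to regions outside the windows, were named after their values were seen. Overlap, coverage, nearest-gene and motif steps were tested on simulated data. Python 3.11.15, numpy 2.4.6 and matplotlib 3.10.9 were used.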

Additional observations from a re-analysis of the deposited data

How the results depend on the processing

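Over 9 results, 55 of 59 values under an alternative stayed within 1.5 times the reported value and 4 did not. The members with a TSS inside a region numbered 3 in place of 6 with regions of at least 1000 bp, since those over *Pecam1*, *Tek* and *Vcam1* are narrower. With a distance of 50 kb the regions at the members numbered 41 in place of 24, and the median per member was 2.5 in place of 1, as a wider window takes in more. With a region within 2 kb counted as over a TSS, 13861 protein-coding genes were included in place of 8749, or 62.0% of them, and 7 of 10 members. The members with at least 1 region ranged from 6 to 9, and their median covered share from 1.73% to 3.10%. No paired analysis was possible because a single ChIP library was used, and no library could be left out. The list gives neither the depth of the library nor the threshold used by ChromHMM, and their part in the missing regions was not tested.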
